A study of Arabidopsis thaliana with 6 samples.

Results

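The R2R3 MYB transcription factors of Arabidopsis thaliana were followed in the rosette leaves of wild-type plants grown in air with added nitric oxide (NO). Members were the genes whose symbol or synonym is MYB with a number, found through the transcript that each array probe names. The 12 MYB genes that act on flavonoids, anthocyanins and glucosinolates were left out by the rule (MYB11, MYB12, MYB28, MYB29, MYB34, MYB51, MYB75, MYB90, MYB111, MYB113, MYB114 and MYB122). That gave 113 members of 25383 genes with a matched probe, 105 by symbol and 8 by synonym. MYB48 is also listed as MYB111 and MYB80 as MYB103, and both were kept under their own symbol.

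The ambient group was fumigated with ambient air and the NO group with ambient air plus 3 ppm NO, day and night until harvest at 4 weeks, and each group has 3 samples. All plants were wild type, grown in soil with sand at 20 °C by day and 16 °C by night, and the ecotype and the NO content of the ambient air are not given in the sources used here. RNA from whole rosettes was labelled with Cy3 and hybridised to one-colour Agilent arrays, 1 array per sample. The comparison addresses which transcripts differ after growth in NO, a gas that plants also make and use as a signal.

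R2R3 MYB proteins bind DNA through a pair of imperfect helix-turn-helix repeats at their N-terminal end, and their variable C-terminal part activates or represses. Subgroups that share a C-terminal motif often share a role, among them lignin and secondary wall formation, cuticular wax, trichome and root hair fate, stomata, responses to abscisic acid and salt, and development of anthers and seeds. Many are active in few cell types, and in leaves they are known best for control of phenylpropanoids, the cuticle and guard cells.

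Signals are given scaled so that the 75th percentile of each array is 1000, and they serve to compare arrays for 1 probe, never 1 probe with another. Changes are log2 of NO over ambient with the SE from limma, n = 3 arrays per group, and a gene passed where the adjusted p (Benjamini-Hochberg over all 18615 genes tested) was under 0.05. The test took every gene whose signal stood well above background throughout at least 1 of the groups. On the 6 arrays 65.2% to 72.0% of gene spots were well above background and 0 were saturated. Each group lies on a slide of its own, scanned on its own, so slide and treatment cannot be told apart in any comparison here. These are bulk samples, in which fewer cells of a type and less RNA per cell cannot be told apart. Leaf markers were bright: the summed signal of 7 mesophyll genes ran from 926228 to 996419 in ambient air and from 1565580 to 2027080 in NO, with 7 of 7 higher in NO, of which RCA turned to -0.13 and lost its call with quantile normalization. Of 5 root markers RHD6, EXP7 and IRT1 had 0 arrays well above background. SCR was bright on all 6 and did not pass (-0.16 ± 0.07). PYK10 was well above background on all 6 but dim, with scaled signals under 300 in both groups. It was higher in NO (0.94 ± 0.16), and its rise was 0.38 with normexp background correction. Of 4 seed markers CRA1, CRU3 and OLEO1 had 0 arrays well above background and LEC2 had 2. All 5 floral organ markers were well above background on all 6 arrays. AP3 (0.43 ± 0.14), PI (0.43 ± 0.10) and AP1 (0.45 ± 0.14) were higher in NO, and AG and SEP3 did not pass. The call of PI was kept in 15 of 15 alternatives, that of AP3 in 6 and that of AP1 in 7. The part of floral tissue in the samples was not tested.

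Of the 113 members, 70 were tested and 43 were not. Among the 43, 35 had 0 arrays well above background and 8 had at least 1, with scaled signals between 2.16 and 41.3. The untested members include every measured member of the suberin pair MYB9 and MYB107, of the stamen factors MYB21, MYB24 and MYB57, of the embryo and female gametophyte group (7 genes with MYB64, MYB98, MYB115, MYB118 and MYB119), and of the tapetum factors MYB35 (TDF1) and MYB80. MYB0 (GLABRA1), the activator of trichome fate, and MYB10 and MYB72, the root regulators of iron deficiency, were also among them. Of the 70, 60 were well above background on all 6 arrays, 8 were tested through the NO group only (MYB20, MYB36, MYB66, MYB76, MYB82, MYB84, MYB86 and MYB121), and 2 through the ambient group only (MYB5 and MYB69). A member tested through 1 group was measured there because it was well above background there, so its direction is a description. Of the rises given next, those of MYB36, MYB66, MYB76 and MYB86 are of this kind, and of the falls that of MYB5.

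**Figure D1:**
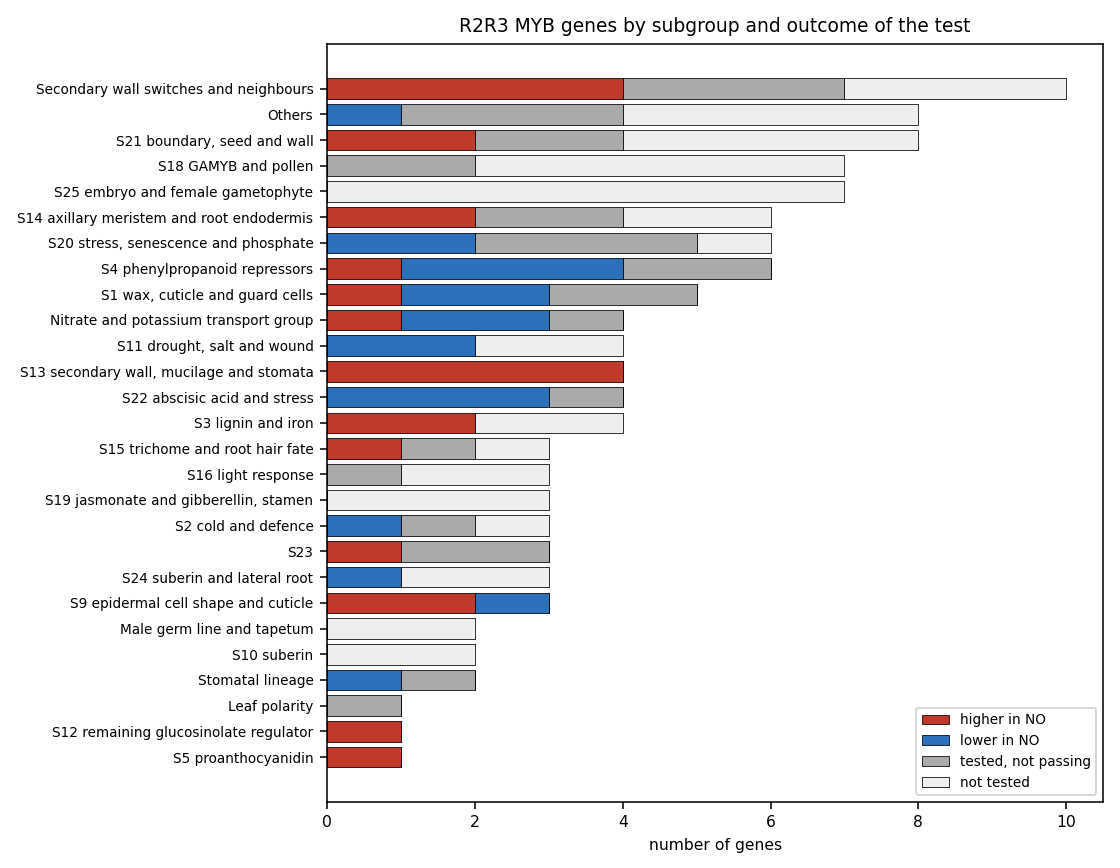
Number of R2R3 MYB genes (x axis) in each subgroup (y axis), split by the outcome of the test of 3 ppm NO against ambient air in limma. The 70 tested genes hold 23 higher and 19 lower in NO, and the 43 untested genes fill whole bars for the suberin pair, the stamen factors, the embryo and female gametophyte group and the tapetum factors.

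Across the 70 tested members, 42 passed the test, which is 60% against 58.2% of all genes tested. In the same fit 23 were higher in NO (32.9%, against 25.8% of all genes) and 19 were lower (27.1%, against 32.4%). The share that passed is near the background and is not a result about MYB genes. Changes of at least 2-fold were held by 4 members higher in NO (5.71%, against 4.99%) and by 2 lower (2.86%, against 2.00%), and 18 of the 42 changed by less than 1.5-fold. The arrays of the groups did not overlap in 43 members (61.4%, against 66.8%). Those 43 include MYB94 and MYB96, which did not pass, while MYB86 passed with groups that overlapped. The median change was -0.06 in the members and -0.05 in all genes tested. With quantile normalization the split was 17 higher and 21 lower, and with normexp background correction, which adds an offset of 50 to each signal, it was 14 higher and 17 lower.

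Replicates of the members were spread more widely than those of all genes at the median. The median SD between arrays of a group was 0.129 (ambient) and 0.113 (NO) in the 70 members, against 0.0743 and 0.0782 in all genes tested, and the median SE of the change was 0.0944 against 0.0676. Of the 42 members that passed, 22 changed over 1.5 times as much as with normexp, and 19 of these 22 had scaled signals under 300 in both groups. Of the 18 passing members brighter than 300 in both groups, 17 also passed with normexp in the same direction.

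**Figure D2:**
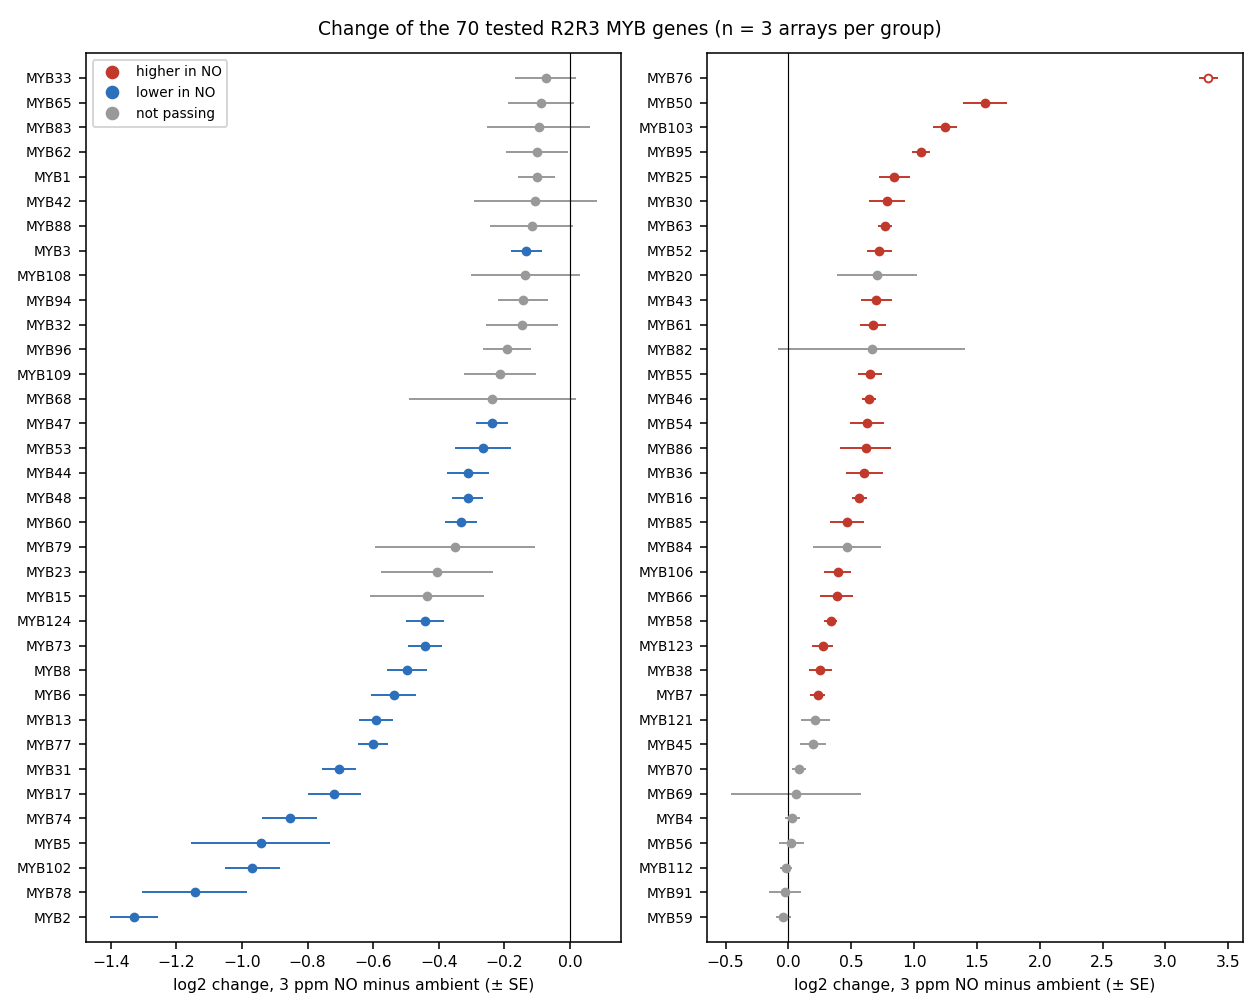
Log2 change of the 70 tested R2R3 MYB genes in 3 ppm NO against ambient air (x axis, points with ± SE, n = 3 arrays per group), in order of the change, with negative changes on the left and a separate x scale on each side. MYB76, the open point at 3.34, had 0 ambient arrays well above background, and the lowest point is MYB2 at -1.33.

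Regulators of the secondary wall and of lignin were mostly higher in NO. MYB46 and MYB83 are the switches that turn on cellulose, xylan and lignin genes in xylem and fibres, and MYB103, MYB85, MYB43, MYB42, MYB20, MYB52, MYB54, MYB58 and MYB63 act below them or on single branches. In this switch group 4 of 7 tested members rose and 0 fell, where 25.8% of all genes tested rose and 32.4% fell. MYB103, which acts on cellulose and syringyl lignin, gave scaled signals of 96.1, 96.3 and 80.2 in ambient air and 232, 215 and 199 in NO. Every NO array lay above every ambient array, and the rise was 1.25 ± 0.09 (2.37-fold, adjusted p = 8.21e-05 in limma). MYB46 gave 258, 252 and 242 in ambient air and 385, 379 and 410.3 in NO, again without overlap, a rise of 0.64 ± 0.05 (adjusted p = 0.000126). MYB43, an activator of lignin genes, gave 152, 135 and 183 against 243, 281 and 235, and it rose by 0.70 ± 0.12 (adjusted p = 0.00314). The ambient arrays of MYB43 were spread more widely than those of MYB46 but stayed below all NO arrays.

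MYB85, a regulator of lignin in fibres, rose by 0.46 ± 0.13 (adjusted p = 0.0231 in limma), and lost the call in 3 of 15 alternatives, among them normexp (0.26). The other 3 tested genes of the switch group did not pass. MYB83, the close partner of MYB46, gave 50.01, 78.2 and 68.4 in ambient air and 58.7, 58.5 and 63.9 in NO, with all NO arrays inside the ambient range (-0.10 ± 0.16, adjusted p = 0.626). MYB42 changed by -0.11 ± 0.19 (adjusted p = 0.654) and MYB20 by 0.71 ± 0.32 (adjusted p = 0.0977), and both had overlapping arrays. MYB83 and MYB20 depended on 1 array: without ambient replicate 1 MYB83 passed as lower and MYB20 as higher in limma. MYB26, which governs wall thickening in anthers, MYB40 and MYB99 were not tested.

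The lignin activators MYB58 and MYB63 both rose, while MYB10 and MYB72 of the same subgroup were too dim to test. MYB63 gave scaled signals of 144, 149 and 150.1 in ambient air and 258, 240.0 and 257 in NO. The ambient arrays were tightly grouped and the NO arrays all stood above them, a rise of 0.77 ± 0.05 (1.70-fold, adjusted p = 5.08e-05 in limma). MYB58 rose less, by 0.34 ± 0.05 (adjusted p = 0.0016), with 173, 163 and 162 against 210.5, 215 and 204 and no overlap.

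In the MYB61 group 4 of 4 tested members passed as higher, where 25.8% of all genes tested did, and the count was 3 in 10 of 15 alternatives. MYB61, known for lignin, seed mucilage and the closing of stomata, gave 96.6, 122 and 101 in ambient air and 186, 162 and 161 in NO, without overlap (0.67 ± 0.10, adjusted p = 0.00178 in limma). MYB50 had the largest change of the members well above background on all 6 arrays, with 40.7, 42.6 and 28.2 in ambient air and 94.2, 108 and 124 in NO. The lowest NO array stood above 2 times the highest ambient array, and the rise was 1.56 ± 0.18 (2.95-fold, adjusted p = 0.000434), which was 0.58 with normexp. MYB55 gave 53.7, 50.6 and 52.7 against 72.2, 93.6 and 81.4, a rise of 0.65 ± 0.10 (adjusted p = 0.00143). MYB86 rose by 0.61 ± 0.20 (adjusted p = 0.036), but its lowest NO array lay below its highest ambient array, it was tested through the NO group only, and it kept the call in 5 of 14 alternatives. MYB52 and MYB54, which act on the wall, were the only 2 of 4 tested members of their subgroup to pass, both upward. MYB52 gave 149, 123 and 124 in ambient air and 239, 204 and 209 in NO, all NO arrays above (0.72 ± 0.10, adjusted p = 0.000934). MYB54 rose by 0.62 ± 0.13 (adjusted p = 0.00713) and lost the call with normexp (0.18) and with the mean of probes. MYB56 (0.02 ± 0.10) and MYB69 (0.06 ± 0.52) did not pass, and MYB69 had the widest NO spread of the 4, from 21.9 to 87.2.

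Put together, the switch group and the groups of MYB58, MYB61 and MYB52 hold 26 members, a union made after their values were seen. Of 17 tested members 12 rose (70.6%, against 25.8% of all genes tested) and 0 fell, with a median of 0.64, MYB86 and MYB20 being tested through the NO group only. With normexp 9 of the 17 rose, at a median of 0.21, and over the 15 alternatives 9 to 13 rose and at most 1 fell. The rise of MYB103 was 0.81 with normexp, that of MYB46 0.40, that of MYB61 0.39 and that of MYB55 0.21, and each of these passed. Markers of xylem moved with them. The summed signal of 5 xylem genes ran from 1483 to 1674 in ambient air and from 2838 to 3600 in NO, and the 3 tested ones, the proteases XCP1, XCP2 and MC9, all rose (0.75 ± 0.08, 1.23 ± 0.11 and 0.41 ± 0.10), while VND6 and VND7 were too dim to test. The part of xylem content in the rise of these MYB genes was not tested.

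**Figure D3:**
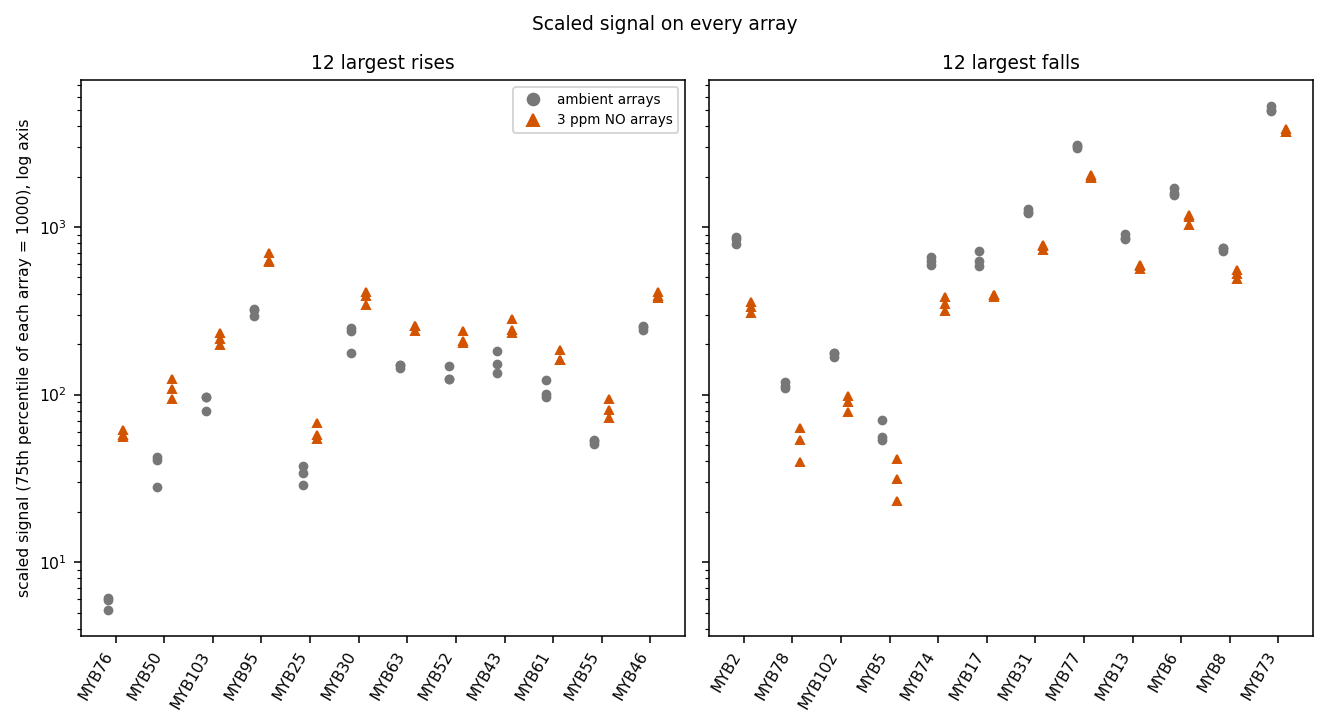
Scaled signal (y axis, log scale, 75th percentile of each array = 1000) on each of the 6 arrays for the 12 largest rises (left) and the 12 largest falls (right) among members past the threshold whose groups do not overlap. Circles are ambient arrays and triangles 3 ppm NO arrays, and levels of different genes are not comparable because each has a probe of its own.

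Genes of the wall itself were followed in a list of 8 for secondary wall cellulose and xylan. Of the 8, 7 rose and 0 fell, with a median of 0.89, where 25.8% of all genes tested rose and 32.4% fell. The cellulose synthase CESA4 gave 1869.5, 1746 and 1759 in ambient air and 3521, 3075 and 3178 in NO, and its partners of the secondary wall complex IRX3 (1.00 ± 0.10) and IRX1 (0.98 ± 0.07) rose with it (0.86 ± 0.07, adjusted p = 8.91e-05 in limma). The xylan synthesis genes IRX9 (0.89 ± 0.10) and IRX10 (0.76 ± 0.09), COBL4 (0.97 ± 0.11) and CTL2 (0.90 ± 0.10) also rose, and FRA8 (0.20 ± 0.09, adjusted p = 0.0976) did not pass. All 7 also passed upward with normexp.

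The lignin list held both rises and falls. Of 16 monolignol and laccase genes 5 rose and 5 fell, near the 25.8% and 32.4% of all genes tested. The list median was 0.08, and with normexp 7 rose and 4 fell. PAL1, which opens the phenylpropanoid pathway, gave 16786, 17206 and 16715 in ambient air and 7132, 6959 and 6924 in NO, a change of -1.27 ± 0.04 with no overlap (adjusted p = 4.23e-06 in limma). PAL2 (-0.55 ± 0.07), the hydroxylases C4H (-0.49 ± 0.09) and FAH1 (-0.27 ± 0.09) and the reductase CCR1 (-0.25 ± 0.06) fell as well, with FAH1 keeping its call in 6 of 15 alternatives. PAL4 (1.06 ± 0.14), 4CL2 (0.44 ± 0.06), CYP98A3 (0.30 ± 0.08) and the lignin laccases LAC4 (0.89 ± 0.12) and LAC17 (0.61 ± 0.11) rose.

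The subgroup of MYB4, known for repressors of phenylpropanoid genes, held 1 rise and 3 falls among 6 tested members. Shares over all genes tested were 25.8% and 32.4%. The 3 falls became 2 or 1 in 12 of 15 alternatives. MYB4, which represses the hydroxycinnamate branch, differed little, with 1888, 1833 and 2056 in ambient air and 1928, 1986 and 1979 in NO (0.03 ± 0.06, adjusted p = 0.677 in limma). MYB6 gave 1603, 1704 and 1558 in ambient air and 1029.8, 1149.5 and 1176 in NO. All NO arrays of MYB6 were below the ambient arrays, a change of -0.54 ± 0.07 (adjusted p = 0.000763). MYB8 (HOS10) gave 747, 749 and 716 against 553, 488 and 527 and fell by 0.50 ± 0.06 (adjusted p = 0.000628), a call that was lost with the mean of its probes (adjusted p = 0.0917). MYB3 fell by 0.13 ± 0.05 (adjusted p = 0.0485) and MYB7 rose by 0.23 ± 0.06 (adjusted p = 0.0154). The MYB3 call was kept in 3 of 15 alternatives and lost in every fit that left out 1 array, and the MYB7 call was lost with scaling to the median and with the mean of probes. MYB32 (-0.15 ± 0.11) did not pass and had overlapping arrays. MYB123 (TT2), the seed coat regulator of proanthocyanidins, rose by 0.27 ± 0.08 (adjusted p = 0.0256) from a dim probe and kept the call in 7 of 15 alternatives.

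The subgroup of MYB30, with roles in wax, cuticle and guard cells, held 1 rise and 2 falls (MYB31 and MYB60) among 5 tested members. Of all genes tested 25.8% rose and 32.4% fell. MYB30, which promotes very-long-chain fatty acids and hypersensitive cell death, gave scaled signals of 249.6, 178 and 240.3 in ambient air and 342, 389 and 408 in NO. The arrays did not overlap although the ambient ones were spread, and the rise was 0.78 ± 0.14 (1.72-fold, adjusted p = 0.00321 in limma). Its relative MYB31 gave 1212, 1234 and 1279 against 730.0, 769.7 and 785, a change of -0.71 ± 0.05 (adjusted p = 7.09e-05), and both probes of each of these genes passed in the same direction. MYB94 (-0.14 ± 0.08, adjusted p = 0.143) and MYB96 (-0.19 ± 0.07, adjusted p = 0.0573), the drought activators of wax synthesis, did not pass, although all NO arrays lay below the ambient arrays in both. With scaling to the median 4 of the 5 tested members of the subgroup were lower. Of 15 wax synthesis and export genes 3 rose, led by KCS1 (0.55 ± 0.12), and 5 fell, led by KCS2 (-0.82 ± 0.14) and WSD1 (-0.80 ± 0.18). These counts are also near the 25.8% and 32.4% of all genes tested. The total of 8 became 4 or 5 in 8 of the 15 alternatives, among them normexp and each fit that left out 1 array.

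MYB16 and MYB106, which shape epidermal cells and the cuticle, rose, and MYB17, a regulator of the change to flowering, fell. MYB16 rose by 0.56 ± 0.06 (adjusted p = 0.000319 in limma), with 607, 639 and 622 in ambient air and 859.8, 951 and 949.9 in NO and no overlap. MYB106 rose by 0.39 ± 0.11 (adjusted p = 0.0186) and lost the call in 7 of 15 alternatives, among them normexp, quantile normalization, cyclic loess and 4 of the 6 fits that left out 1 array. MYB17 gave 623, 716 and 582 in ambient air and 391, 391.7 and 381 in NO. The NO arrays were nearly level and all below the ambient arrays, a change of -0.72 ± 0.08 (adjusted p = 0.000428), the same size with normexp. The suberin factor MYB53 fell by 0.27 ± 0.08 (adjusted p = 0.0327), a call kept in 8 of 15 alternatives, and its relatives MYB92 and MYB93 were not tested. In the list of suberin and cutin genes 4 of 11 tested rose and 5 fell, where 25.8% of all genes tested rose and 32.4% fell. Those that rose are the cutin genes GPAT4 (0.54 ± 0.07), GPAT6 (0.86 ± 0.12), LACS2 (0.36 ± 0.09) and CYP86A2 (0.56 ± 0.06). Those that fell are the suberin genes GPAT5 (-0.59 ± 0.11), CYP86A1 (-0.34 ± 0.09), CYP86B1 (-0.47 ± 0.08), ABCG6 (-0.44 ± 0.10) and ABCG20 (-0.78 ± 0.10). CYP86A1 lost its call in 3 of 15 alternatives, normexp among them, and ABCG20 turned in sign with the mean of probes. The suberin genes FAR1 (-0.19 ± 0.11) and ABCG2 (-0.04 ± 0.06) did not pass.

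Of the MYB genes known from guard cells and their precursors, MYB61 rose as given above, MYB60 and MYB124 fell, and MYB88 did not pass. Of all genes tested 32.4% fell. MYB60, which promotes the opening of stomata, gave 2331, 2373 and 2305 in ambient air and 1925, 1802 and 1841 in NO, without overlap (-0.33 ± 0.05, adjusted p = 0.00134 in limma). MYB124 (FLP), which ends the division of guard mother cells, gave 1067, 1168 and 1092 against 797, 849 and 803 and fell by 0.44 ± 0.06 (adjusted p = 0.000762). A second probe of MYB124 did not pass (-0.07 ± 0.14). MYB88, the partner of MYB124, did not pass either (-0.12 ± 0.13), and its 4 probes differed in sign, 1 of them passing as higher. Of 5 guard cell markers 4 fell and 0 rose, with FAMA (-0.67 ± 0.08) and SLAC1 (-0.55 ± 0.05) lowest, while the calls of GORK and KAT1 were kept in 9 and 5 of 15 alternatives, and their summed signal ran from 9783 to 10197 in ambient air and from 8275 to 8823 in NO. The part of guard cell content in the falls of MYB60 and MYB124 was not tested.

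In the subgroups of MYB2, MYB102, MYB44 and MYB13, known from drought, salt, wounding, cold and abscisic acid, tested members were lower or did not pass. MYB2, an activator of abscisic acid responsive genes that also acts in senescence, gave scaled signals of 789.6, 844 and 868 in ambient air and 335, 356 and 305 in NO. Every NO array was below 0.5 times the lowest ambient array, a change of -1.33 ± 0.07 (2.51-fold lower, adjusted p = 2.16e-05 in limma), and it was the one member that stayed at least 2-fold changed with normexp (-1.22). MYB78 of the same subgroup gave 109, 118 and 112 against 39.6, 53.5 and 63.1. The NO arrays were spread but all below the ambient arrays, a change of -1.14 ± 0.16 (2.21-fold lower, adjusted p = 0.0011), which was -0.60 with normexp. MYB62 (-0.10 ± 0.09), a regulator of phosphate starvation, MYB108 (-0.14 ± 0.17), known in stamens and in defence against Botrytis, and MYB112 (-0.02 ± 0.05), known from salt and light stress, did not pass.

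MYB102 and MYB74, which respond to wounding, osmotic stress and salt, both fell, and MYB41 and MYB49 of their subgroup were not tested. MYB102 gave 167, 177 and 178 in ambient air and 79.2, 97.6 and 90.7 in NO, a change of -0.97 ± 0.08 (1.96-fold lower, adjusted p = 0.000138 in limma) without overlap. MYB74 gave 627, 597 and 667 against 384, 317 and 346 and fell by 0.85 ± 0.08 (adjusted p = 0.000231). The changes were -0.52 and -0.68 with normexp, and both passed.

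MYB44, MYB73 and MYB77, close relatives that act in abscisic acid, salt and auxin responses, fell, and the fourth, MYB70, did not pass. MYB77 gave 2975, 3086 and 3025 in ambient air and 1968, 1987 and 2034 in NO. Both groups were tight and far apart, a change of -0.60 ± 0.05 (1.52-fold lower, adjusted p = 7.89e-05 in limma). MYB73 gave 5022, 4951 and 5309 against 3714, 3861 and 3667, also without overlap (-0.44 ± 0.05, adjusted p = 0.000508; -0.28 with normexp). MYB44 gave 10451, 9995 and 10699.7 against 7862, 8347 and 8916 and fell by 0.31 ± 0.06 (adjusted p = 0.00545). A second probe of MYB44 did not pass (-0.19 ± 0.14). MYB70 gave 2388, 2430.0 and 2252 against 2409, 2555 and 2518, with overlapping arrays (0.08 ± 0.05, adjusted p = 0.225). The probes that represent these genes are bright, and the 3 calls held with normexp.

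MYB13, a relative of the cold and defence regulator MYB15, gave 845, 864 and 908 in ambient air and 560.4, 593 and 584 in NO, a change of -0.59 ± 0.05 (adjusted p = 0.000151 in limma) with no overlap. MYB15 itself, which also acts on defence lignin, did not pass (-0.43 ± 0.17, adjusted p = 0.0684), and its 2 probes had opposite signs. Together the groups of MYB2, MYB102, MYB44 and MYB13 hold 17 members, again a union made after their values were seen. Of 13 tested members 8 fell (61.5%, against 32.4% of all genes tested) and 0 rose, at a median of -0.44, and 8 or 9 fell in each of the 15 alternatives. The union leaves out the subgroup of MYB30, with the drought activators MYB94 and MYB96, in which 1 member rose and 2 fell. In the list of 14 genes of core abscisic acid signalling 4 rose and 4 fell, near the 25.8% and 32.4% of all genes tested. Of the phosphatases, which hold the pathway off, ABI1 (-0.29 ± 0.06), ABI2 (-0.42 ± 0.07), HAB1 (-0.58 ± 0.08) and PP2CA (-0.47 ± 0.06) fell. The phosphatases HAI1 (0.06 ± 0.06) and HAI2 (-0.43 ± 0.20) did not pass. The receptors PYL5 (0.99 ± 0.09) and PYL6 (0.26 ± 0.07) and the responsive genes RD29A (0.93 ± 0.22) and RD29B (1.51 ± 0.25) rose, and RD22, the known target of MYB2, did not pass (0.05 ± 0.07, adjusted p = 0.576). The receptor PYL4 (0.05 ± 0.06), the responsive gene RAB18 (0.12 ± 0.05) and the kinase SNRK2.6 (-0.14 ± 0.06) did not pass either.

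**Figure D4:**
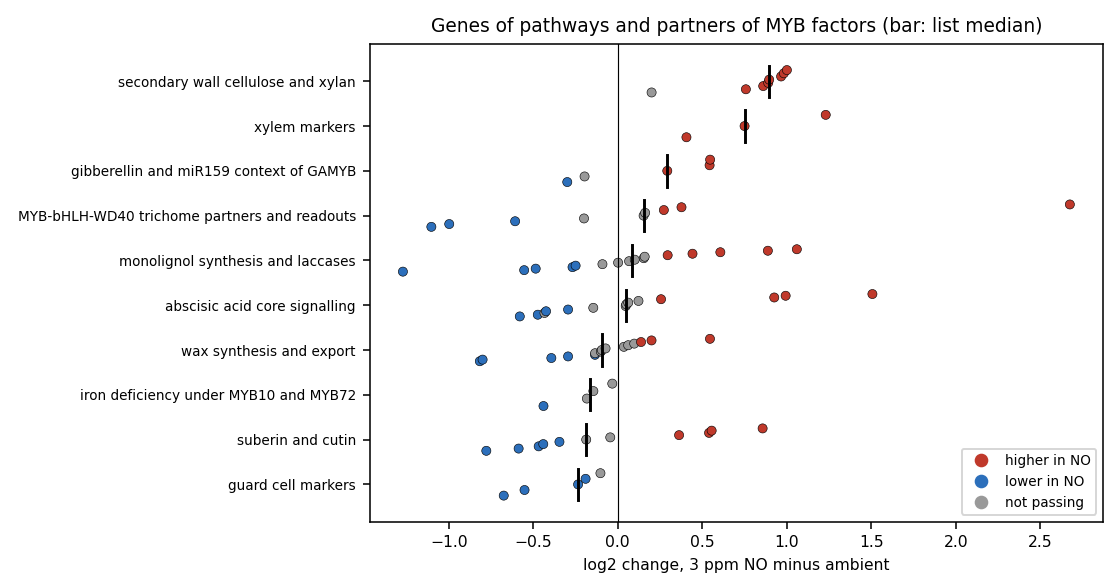
Log2 change in 3 ppm NO against ambient air (x axis) of each tested gene in the lists of pathways and cell markers named on the y axis, with a bar at the list median. Secondary wall and xylem genes lie to the right (medians 0.89 and 0.75), guard cell markers to the left (median -0.23), and the lignin, cutin and abscisic acid lists hold changes on both sides.

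The group of MYB59, which acts on nitrate and potassium transport, held 1 rise and 2 falls among 4 tested members. Of all genes tested 25.8% rose and 32.4% fell. MYB95 gave scaled signals of 319, 324 and 294 in ambient air and 621, 629.7 and 698 in NO. Every NO array stood far above every ambient array, a rise of 1.06 ± 0.07 (2.08-fold, adjusted p = 4.19e-05 in limma), which was 0.88 with normexp. MYB47 fell by 0.24 ± 0.05 (adjusted p = 0.00632) and MYB48 by 0.31 ± 0.05 (adjusted p = 0.00162), both without overlap. MYB59 itself gave 11440.4, 11779 and 12667 in ambient air and 11968, 11349 and 11547 in NO and did not pass (-0.04 ± 0.06, adjusted p = 0.566).

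Among the tested MYB genes of trichome and root hair fate, MYB66 and MYB5 passed and MYB23 and MYB82 did not. Of all genes tested 58.2% passed. MYB66 (WEREWOLF), which sets hairless root cells, rose by 0.39 ± 0.13 (adjusted p = 0.0407 in limma) from a probe well above background on only 2 ambient arrays, kept the call in 5 of 14 alternatives and was 0.04 with normexp. MYB23, which acts in trichome branching, gave 154, 119.8 and 96.5 in ambient air and 87.9, 102 and 85.2 in NO. Its highest NO array lay within the ambient range, and it did not pass (-0.41 ± 0.17, adjusted p = 0.0791), but passed as lower with quantile normalization and without ambient replicate 3. MYB5, a regulator of trichomes and seed coat mucilage, gave 70.5, 53.5 and 55.9 against 23.1, 31.2 and 41.0, a change of -0.94 ± 0.21 (adjusted p = 0.00856) on a probe well above background on 2 of 3 NO arrays (-0.45 with normexp). MYB82 (0.66 ± 0.74) was too variable to pass, with ambient arrays from 5.65 to 53.5. Of 9 tested partners and targets of these factors 3 rose and 3 fell, where 25.8% of all genes tested rose and 32.4% fell. GL2, a direct target that drives trichome growth, fell (-0.61 ± 0.06), as did the single-repeat inhibitors CPC (-0.997 ± 0.09) and ETC3 (-1.10 ± 0.05). The inhibitors TRY (0.27 ± 0.05) and ETC1 (0.38 ± 0.08, not passing with normexp) rose. ETC2 had 0 ambient arrays well above background and was tested through the NO group only, so its direction is a description. Its fitted change was 2.68 ± 0.13 (adjusted p = 1.30e-05 in limma), and it was 1.17 with normexp.

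MYB76, an activator of aliphatic glucosinolate genes, gave 6.12, 5.92 and 5.16 in ambient air and 57.4, 55.5 and 61.3 in NO. Its probe was well above background on 0 of 3 ambient and 3 of 3 NO arrays. The NO signal was 2.62-fold the lowest signal measured well above background on the ambient arrays. This ratio is not a lower limit of the change, because probes with higher signals also missed that flag. The fitted change was 3.34 ± 0.08 (adjusted p = 1.39e-06 in limma) from ambient signals not above background, and it was 0.63 with normexp.

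Regulators of branching and of the root endodermis had dim probes. MYB36, which drives the Casparian strip, gave 34.9, 23.5 and 29.1 in ambient air and 43.5, 40.3 and 47.8 in NO, a rise of 0.60 ± 0.15 (adjusted p = 0.0115 in limma) that turned to -0.009 with normexp and lost the call with quantile normalization. MYB38 (RAX2), which promotes axillary buds, rose by 0.25 ± 0.09 (adjusted p = 0.046) and kept the call in 3 of 15 alternatives. MYB84 (RAX3, 0.46 ± 0.27) and MYB68 (-0.24 ± 0.25) did not pass. Of 4 tested members of the group 2 rose in the processed signal, where 25.8% of all genes tested rose. With normexp or with quantile normalization 0 rose.

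MYB25 gave 28.7, 37.5 and 34.2 in ambient air and 68.1, 54.2 and 57.2 in NO, a rise of 0.84 ± 0.12 (adjusted p = 0.00137 in limma) without overlap, which did not pass with normexp (0.22, adjusted p = 0.203). Its relatives MYB1 (-0.10 ± 0.06) and MYB109 (-0.21 ± 0.11) did not pass. MYB33 (-0.07 ± 0.09, adjusted p = 0.525) and MYB65 (-0.09 ± 0.10, adjusted p = 0.479), the gibberellin-linked factors that miR159 silences in leaves, had overlapping arrays and did not pass. Of 5 tested genes around them the growth repressors GAI (0.55 ± 0.10), RGA1 (0.29 ± 0.06) and RGL1 (0.54 ± 0.06) rose and RGL2 (-0.30 ± 0.06) fell, the last not passing with normexp and turned in sign with the mean of probes. MYB91 (AS1), which sets leaf polarity, gave 463, 473 and 426 in ambient air and 407, 547 and 397 in NO and did not pass (-0.03 ± 0.13, adjusted p = 0.877). MYB45 (0.19 ± 0.10), MYB79 (-0.35 ± 0.24) and MYB121 (0.22 ± 0.11) did not pass either. In the list of iron deficiency genes under MYB10 and MYB72, 1 of 4 tested genes fell, the reductase FRO2 (-0.44 ± 0.06), and 0 rose, while 3 passed without NO replicate 2. Of all genes tested 25.8% rose and 32.4% fell.

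**Figure D5:**
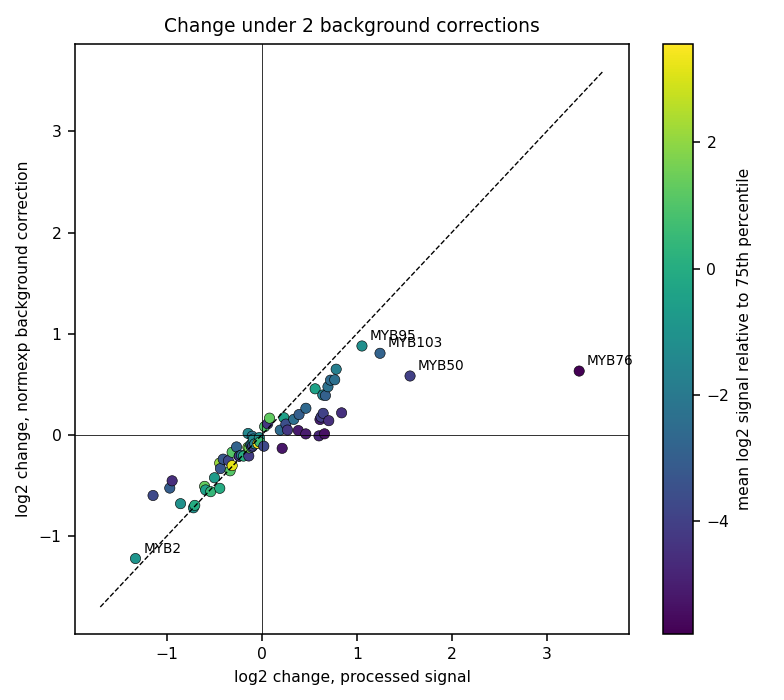
Log2 change of the tested R2R3 MYB genes from the processed signal (x axis) against that with normexp background correction and an offset of 50 (y axis), with the mean log2 signal relative to the 75th percentile as colour and a dashed line of equal values. Of the 42 passing genes 22 changed over 1.5 times as much on the x axis as on the y axis, 19 of them dim in both groups, with MYB76 at 3.34 against 0.63 and MYB2 at -1.33 against -1.22.

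Several probes of 1 gene gave a further reading. In 15 members with several tested probes, 13 had the same sign in every probe, 6 had every probe passing in 1 direction (MYB30, MYB31, MYB43, MYB58, MYB60 and MYB106), and 0 had probes that passed in opposite directions. The 2 with mixed signs were MYB15 and MYB88. Matching shares over all genes with several probes were not computed, so these counts are a description. Of MYB3, neither probe passed in the fit over probes, though the gene passed in the fit over genes.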

How the data were processed

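Whole rosettes of 3 ambient and 3 NO samples were measured on 6 arrays, and the labels call the replicates independent biological experiments. Scanner files deposited by the authors give linear intensities of each spot after background subtraction. The software was Agilent Feature Extraction, 10.7.3.1 in the headers of the files and 10.5 in the submitters' processing notes. A series matrix deposited beside them has log2 values, whose columns correlated with these signals at 0.9999 to 1.0000 across probes after centring (column medians -0.07 to 0.04), and was an alternative.

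Here each log2 processed signal was taken relative to the 75th percentile of its array (716 to 1320). Control spots and 5 to 18 outliers per array were dropped, and repeated spots of a probe averaged. Of 43603 probes, 34285 matched 1 locus by transcript in a RefSeq table for TAIR10.1 and 9318 did not. The file headers name an older build, so no coordinates are given. A gene was represented by its brightest probe. The filter kept probes with more than 0.5 of their spots well above background on every array of a group. Groups were compared with limma 3.58.1 (lmFit, eBayes) under R 4.3.3 in two-sided tests adjusted by Benjamini-Hochberg. The number of arrays limits the precision. On simulated arrays (18603 genes) only a few of the genes were shifted. The comparison found 58% of those with a log2 shift of 0.5 and 86% at 1. In the data 58.2% of all genes tested passed, and the members were spread more widely than all genes. The simulated rates therefore do not carry over to the members.

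Members and gene lists were chosen with earlier results of these data known. Named members were the 12 largest rises and 12 largest falls among passing members without overlap. Added to these were the largest change in each subgroup with at least 2 tested members, and tested members well above background on no array of a group. Others were named to account for their group. The titles number the NO samples 1 to 3 and the source names 2 to 4. The title numbers are used. The files held no mean spot signal, so normexp ran on the median signal and the median background with an offset of 50. Other alternatives were quantile, median and cyclic loess normalization, the mean of probes, no filter or a stricter one, the authors' matrix, a replicate block, and each array left out.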

Additional observations from a re-analysis of the deposited data

How the results depend on the processing

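Against 23 members higher, 19 lower and 6 at least 2-fold, normexp on median signals with an offset of 50 gave 14 higher and 1 at least 2-fold, and which of these changes moved the counts was not tested. Leaving out each array in turn gave 18 to 22 higher, 17 to 20 lower, 5 to 7 at least 2-fold, while all genes past the threshold numbered 9482 to 9752 in place of 10840. Of the 42 calls, 31 to 41 were kept in the same direction under the 15 alternatives, and 0 passed in the opposite direction. Among 28 named members 24 kept direction and side of the threshold in each alternative that gave a value (417 of 420 fits). MYB5, MYB36 and MYB76 had no value with the filter on all 6 arrays. MYB36 turned to -0.009 with normexp (adjusted p = 0.964 in limma) and was 0.42 with quantile normalization (adjusted p = 0.0574). MYB25 lost its call with normexp and MYB8 with the mean of probes. The samples share only replicate numbers: same-numbered samples correlated in their deviations at -0.080, -0.040 and 0.045, and not every sample correlated best with its own number. A fit with the replicate block gave 22 higher, 17 lower, 6 at least 2-fold and 10066 genes in all. The median of all genes moved from -0.05 to -0.10 at most, with scaling to the median or no filter. No block for the slide could be fitted. Among the calls on dim probes, those of MYB36, MYB66, MYB76 and MYB86 rest on ambient signals not well above background on every array. That of MYB5 rests on such NO signals.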
